A study of Mus musculus with 3 samples.

Results

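Chromatin over 9 genes of the B lineage was read in long-term hematopoietic stem cells (HSCs). The genes were *Ebf1*, *Pax5*, *Rag1*, *Rag2*, *Vpreb1*, *Igll1*, *Cd79a*, *Cd79b* and *Blk*. They were chosen by name, and all 9 were found among the 21755 protein-coding genes of chromosomes 1 to 19 and X. The cells came from the bone marrow of 8-week-old wild-type female C57BL/6 mice (C57BL/6J in the study's methods), were enriched on c-Kit beads, and were sorted as LSK CD48− CD150+ CD34−. They were profiled by DOGMA-seq, in which nuclear accessibility (ATAC), RNA and antibody tags are read under shared cell barcodes. There was 1 ATAC library and no second condition, so no value has a replicate and no test between groups was possible. RNA per gene was not analysed here, so all that follows is about accessibility and not about expression.

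Blood stem cells become B cells through lymphoid progenitors. EBF1, switched on in early B-cell progenitors, opens and activates many B-cell genes, and PAX5 then holds the cells to the B lineage by activating B-cell genes and repressing those of other lineages. RAG1 and RAG2 together cut DNA to assemble antigen receptor genes. VPREB1 and IGLL1 form the surrogate light chain of the precursor B-cell receptor, CD79A and CD79B carry the signal of that receptor into the cell, and BLK is a kinase of the Src family that acts downstream of it. In ATAC, a transposase cuts wherever DNA is not shielded by nucleosomes or other proteins, so an active promoter or enhancer collects many short fragments, and fragments long enough to wrap a nucleosome come from less open DNA.

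Of 3757 barcodes called as cells, 3108 had more than 3000 fragments in peaks and were kept, and all 3108 also held RNA. They carried 37137164 unique fragments on these chromosomes, with a median of 11457 per cell. Each fragment was placed by its midpoint. Background was the mean of 500-bp bins more than 20 kb from any protein-coding gene, after the highest 5% were left out, and came to 0.677 fragments per bin or 2.71 per promoter window. A promoter, 1 kb either side of the gene start, was named open at 10 times background or more. A gene with a weaker promoter was named primed if at least 1 distal bin reached 10 times background, and closed otherwise. Distal bins were those in the gene body or within 20 kb of it and over 1 kb from the start of any protein-coding gene record, so starts of shorter or other transcripts were not left out. These names stand for the counting rules only. By them 13 of 14 HSC markers and factors were open, against 70.1% of all protein-coding genes, from *Tal1* at 801 and *Mllt3* at 725 times background down to *Lmo2* at 16.3, whereas *Mecom* stood at 3.69 at its gene start and was primed. Intervals printed as ranges are exact 95% Poisson or binomial intervals, and where a count was 0 the limit given is 3 counts. They cover counting error only, since 1 library has no replicate. Duplicate reads were collapsed by position without molecular identifiers.

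The sites on which the results turn are shown first, as the 300 bases with the most fragments around a strong distal bin, on the plus strand of mm10 (GRCm38). Capitals mark 7 short strings of factors known in blood cells, searched on both strands. The E-box string, read by E-proteins, was CAGGTG. The string for EBF factors was CCCNNGGGA, and that for the myeloid and lymphoid factor PU.1 was GAGGAAGT. Those for RUNX and STAT factors were TGTGGT and, for the second family, TTCNNNGAA. For FOXO factors TGTTTAC was searched, and the string searched for GATA factors was AGATAA. No matches overlapped in the sequences printed here. A sequence wholly in lower case holds none of them. The first is the strongest site in the *Ebf1* window, 6.07 kb upstream of the gene start and partly in the transcript Gm37695. The second lies in intron 1 of *Pax5*, and the third lies 3.25 kb upstream of *Rag1*. The fourth is the strongest site upstream of *Cd79b* and reaches into an exon of *Scn4a*. The fifth lies downstream of both *Vpreb1* and *Igll1*, and the last is in intron 6 of *Blk*.
Ebf1 site, chr11:44610903-44611202: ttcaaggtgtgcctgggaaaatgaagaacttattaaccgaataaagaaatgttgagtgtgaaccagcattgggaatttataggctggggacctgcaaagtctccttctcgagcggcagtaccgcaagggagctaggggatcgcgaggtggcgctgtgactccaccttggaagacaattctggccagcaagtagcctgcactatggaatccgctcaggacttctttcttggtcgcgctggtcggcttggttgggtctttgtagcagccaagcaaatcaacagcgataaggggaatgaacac
Pax5 site, chr4:44704397-44704696: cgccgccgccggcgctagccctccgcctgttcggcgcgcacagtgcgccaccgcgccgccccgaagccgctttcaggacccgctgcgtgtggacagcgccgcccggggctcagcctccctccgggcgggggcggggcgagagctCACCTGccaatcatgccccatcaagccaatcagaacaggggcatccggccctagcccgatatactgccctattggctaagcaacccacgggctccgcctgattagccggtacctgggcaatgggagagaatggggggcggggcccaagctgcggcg
Rag1 upstream site, chr2:101652765-101653064: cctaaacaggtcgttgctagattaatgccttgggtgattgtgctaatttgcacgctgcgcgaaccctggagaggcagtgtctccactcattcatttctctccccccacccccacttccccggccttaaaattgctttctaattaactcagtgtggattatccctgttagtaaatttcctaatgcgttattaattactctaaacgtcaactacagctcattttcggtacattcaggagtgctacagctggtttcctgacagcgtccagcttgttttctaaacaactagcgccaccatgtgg
Cd79b upstream site, chr11:106329752-106330051: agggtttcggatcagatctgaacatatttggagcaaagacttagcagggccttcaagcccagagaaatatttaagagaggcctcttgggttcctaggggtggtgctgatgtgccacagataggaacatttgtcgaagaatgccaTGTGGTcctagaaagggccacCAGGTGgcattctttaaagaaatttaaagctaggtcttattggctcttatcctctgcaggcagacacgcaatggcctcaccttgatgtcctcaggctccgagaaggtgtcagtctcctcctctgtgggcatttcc
Vpreb1 and Igll1 site, chr16:16854859-16855158: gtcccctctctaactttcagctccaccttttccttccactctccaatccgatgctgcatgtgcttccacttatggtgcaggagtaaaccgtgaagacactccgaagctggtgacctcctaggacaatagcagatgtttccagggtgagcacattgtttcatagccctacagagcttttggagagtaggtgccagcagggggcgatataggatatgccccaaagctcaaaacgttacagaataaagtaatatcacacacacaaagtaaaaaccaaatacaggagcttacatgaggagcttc
Blk intron site, chr14:63381985-63382284: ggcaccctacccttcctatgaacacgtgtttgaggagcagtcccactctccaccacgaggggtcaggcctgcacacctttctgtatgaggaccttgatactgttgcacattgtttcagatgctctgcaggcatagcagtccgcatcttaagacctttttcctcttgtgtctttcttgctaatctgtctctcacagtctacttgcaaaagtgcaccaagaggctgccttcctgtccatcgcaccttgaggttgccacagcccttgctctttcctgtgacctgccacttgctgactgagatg

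The 3 promoters with the fewest fragments around their RefSeq start are shown beside them, as the 250 bases before the RefSeq start on the strand of the gene (RefSeq, GRCm38.p6, minus strand for each). RefSeq entries were found for 7 of the 9 genes, and not for *Cd79b* and *Blk*. *Rag1* held an E-box string and 2 RUNX strings, *Igll1* an E-box and a RUNX string, and *Vpreb1* an E-box string. Of all 8 entries of the 7 genes, 4 held CAGGTG (these 3 and *Cd79a*) and 3 held TGTGGT (*Rag1*, *Igll1* and 1 of the 2 of *Ebf1*), and those of *Rag2*, *Pax5* and the other of *Ebf1* held none of the 7 strings. Among all 32851 RefSeq promoter entries, 17.2% held CAGGTG and 14.0% held TGTGGT within the same length.
Rag1 promoter, chr2:101649533-101649782: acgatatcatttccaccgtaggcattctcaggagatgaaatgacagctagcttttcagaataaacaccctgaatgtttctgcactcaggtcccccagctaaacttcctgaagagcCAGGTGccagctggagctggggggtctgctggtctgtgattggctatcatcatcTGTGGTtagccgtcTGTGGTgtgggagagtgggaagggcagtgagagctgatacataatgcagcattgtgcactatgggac
Vpreb1 promoter, chr16:16869256-16869505: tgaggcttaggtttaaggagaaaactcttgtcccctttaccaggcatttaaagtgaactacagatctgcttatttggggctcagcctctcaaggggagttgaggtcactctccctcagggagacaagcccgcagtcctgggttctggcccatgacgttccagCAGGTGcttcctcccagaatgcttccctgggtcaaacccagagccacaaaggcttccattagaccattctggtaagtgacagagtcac
Igll1 promoter, chr16:16863986-16864235: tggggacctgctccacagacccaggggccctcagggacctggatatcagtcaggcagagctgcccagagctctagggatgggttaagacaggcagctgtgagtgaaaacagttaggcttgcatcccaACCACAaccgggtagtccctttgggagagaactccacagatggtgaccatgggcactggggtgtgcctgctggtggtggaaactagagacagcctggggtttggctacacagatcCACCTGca

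At their gene starts, 7 of the 9 genes were open, against 70.1% of all protein-coding genes. The other 2, *Igll1* and *Blk*, were primed, against 16.6% of all genes. No member was closed, against 13.4% of all genes. The bar of 10 times background was a low one, because the median promoter stood at 113 times background. At 100 times background or more, which 51.8% of all promoters reached, only *Vpreb1* and *Ebf1* remained, and 8 of the 9 promoters were below the median of all genes. The median of the 9 was 21.1 times background, at percentile 34.7 of all protein-coding promoters. The value of *Vpreb1* was taken at a record start with no protein-coding transcript, beside the start of *Top3b*. With the start of its protein-coding transcript in its place, 6 of the 9 genes were open and 3 primed, *Ebf1* alone reached 100 times background, and the median was 16.3. By the principal transcript of every gene 71.4% of all genes were open. *Pax5* moved the other way. By the highest of all annotated starts it stood at 496 times background, at the start of a protein-coding transcript within the gene, above the median of 146 that all genes had by that rule. By the same rule *Ebf1* at 108, *Pax5* and *Vpreb1* reached 100 times background, a level below that median of all genes. By it 7 of the 9 were open, against 73.4% of all genes. None of the 9 starts was CpG-rich (GC over 50% and observed over expected CpG over 0.6), whereas 30.0% of all promoters were. Of CpG-rich promoters 99.3% were open, and of CpG-poor promoters 57.6%. Within the CpG-poor promoters, whose median was 23.6 times background, the 9 genes ranged from percentile 36.8 (*Blk*) to 81.5 (*Vpreb1*, by its record start), and 4 of the 9 were above the median, or 3 with *Vpreb1* at its protein-coding start.

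**Figure D1:**
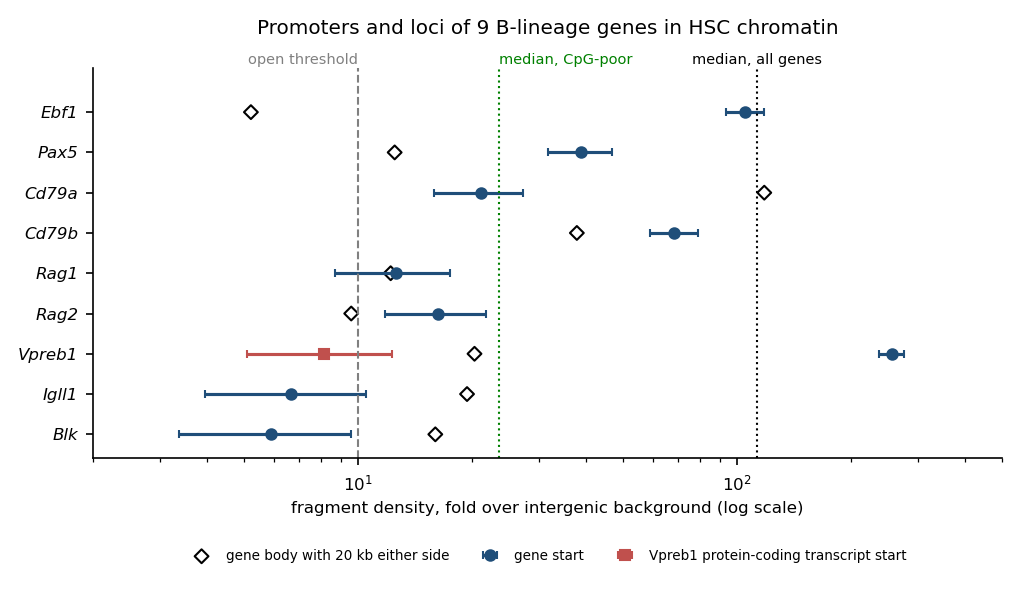
Fragment density over intergenic background (x axis, log scale) at the start of each gene (blue circles with 95% Poisson intervals), at the start of the protein-coding transcript of *Vpreb1* (red square) and over the gene body with 20 kb either side (open diamonds). Dashed and dotted lines mark the threshold of 10 and the medians of all and of CpG-poor promoters. *Blk* and *Igll1* lie left of the threshold, and among the gene starts only that of *Vpreb1* lies right of the median of all promoters.

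*Ebf1*, the gene of the factor that starts the B-cell program, lies on chromosome 11 (44617317 to 45008091, plus strand). Its promoter held 285 fragments, 105 times background (95% interval 93.4 to 118), at percentile 49.0 of all promoters. These fragments came from 250 cells, 8.04% of the cells kept (7.11 to 9.06%). The promoter was the most open of the 9 by this count apart from that of *Vpreb1*. It sat in a run of raised bins 7.0 kb long with 573 fragments (44616001 to 44623000). A second run, 4.5 kb long and upstream of the first (44610001 to 44614500), held 549 fragments. Its strongest bin had 239 fragments, or 353 times background (310 to 401), in 223 cells. Past these runs the gene was largely bare. Over its body and flanks, 431 kb in all, the density was 7059 fragments per Mb (6811 to 7315), or 5.22 times background, at percentile 25.7 of all genes. It was the lowest density of the 9. Of 863 bins, 269 held no fragment and 57 were raised, and 66.1% of all fragments fell in 21 runs. Far inside the gene, intron 8 held a site with 153 fragments 280 kb from the start (44897001 to 44897500), with 226 times background (192 to 265). Another bin, with 130 fragments, lay across the far end of the gene (45008001 to 45008500). Its densest 300 bases (45008160 to 45008459), with 116 fragments, lie past the gene end at 45008091. The Ebf1 site printed above held none of the 7 strings in its 300 bases.

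*Pax5*, the gene of the commitment factor, lies on chromosome 4 (44524757 to 44710487, minus strand). At the gene start 105 fragments were counted, 38.8 times background (31.7 to 46.9), at percentile 38.6. The strongest signal lay elsewhere. In intron 1, 5.74 kb downstream of the start, a single bin held 612 fragments from 528 cells, or 17.0% of the cells kept (15.7 to 18.4%), and stood at 905 times background (834 to 979). That bin lies 495 bp from the annotated start of another *Pax5* transcript (44704006, within the gene) and overlaps 5730488B01Rik. The window around that start held 1343 fragments, 496 times background (470 to 523), compared with 105 around the gene start, and these intervals did not overlap. *Pax5* is known to be transcribed from alternative promoters. Which of these starts is used in the cells cannot be read from accessibility. Its 300 printed bases had a GC content of 71.0% and 32 CpGs, more than any other of the strongest sites of these genes. A run of raised bins 16.5 kb long joined both starts (44699501 to 44716000) and held 2103 of the 3821 fragments of the window. Further in, intron 5 had a site with 118 fragments (44672501 to 44673000), and intron 8 a site with 119 (44564501 to 44565000), at 174 and 176 times background. The density over body and flanks was 12.5 times background, at percentile 38.8.

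**Figure D2:**
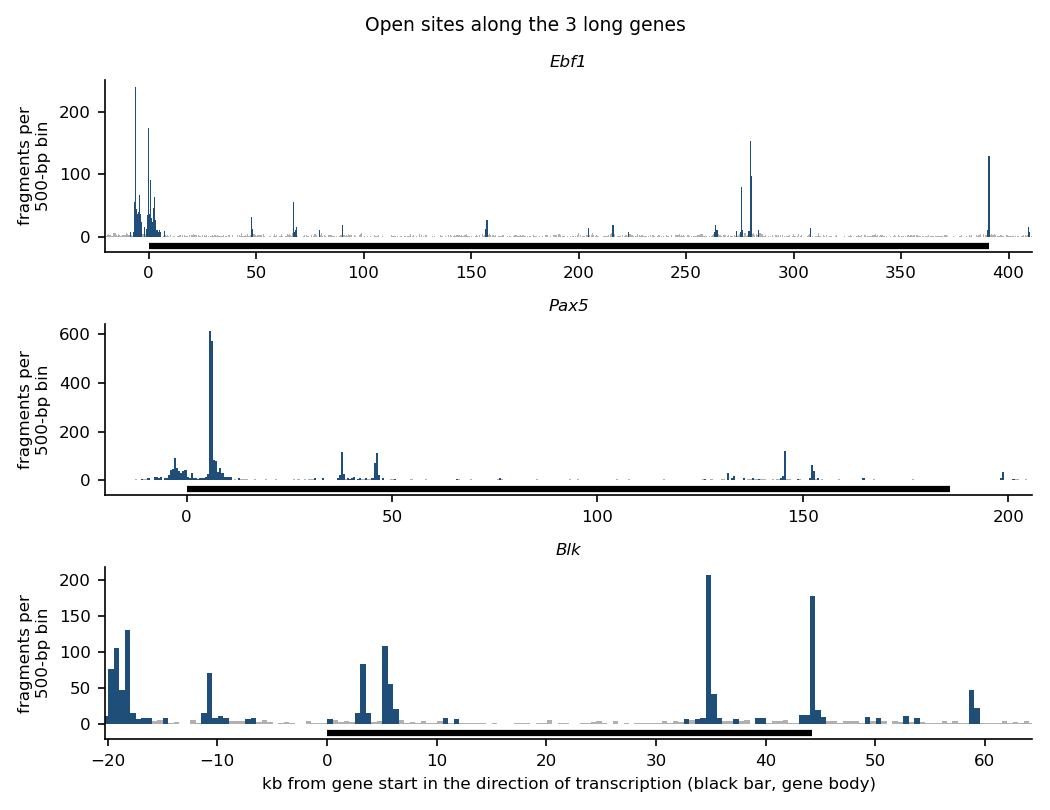
ATAC fragments per 500-bp bin (y axis, linear) along the 3 long genes, by distance from the gene start in the direction of transcription (x axis, kb). Blue bins reach 10 times background, gray bins do not, and the black bar is the gene body. *Ebf1* shows isolated sites in a bare gene body, *Pax5* a dominant site of 612 fragments within its first intron, and *Blk* its strongest bins, of 207 and 178 fragments, far from its start.

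The recombinase genes *Rag1* and *Rag2* lie on chromosome 2, transcribed towards each other from starts 24783 bp apart (*Rag1* at 101649501 on the minus strand, *Rag2* at 101624718 on the plus strand). Their windows overlap and share bins, so they are not independent readings. The *Rag1* promoter held 34 fragments, 12.6 times background (8.7 to 17.5), in 31 cells. The *Rag2* promoter held 44 fragments, 16.3 times background (11.8 to 21.8), in 41 cells. These intervals overlapped each other, and that of *Rag1* reached below the threshold of 10. The promoter density was 1.03 times the mean of the whole window for *Rag1* and 1.69 times for *Rag2*, compared with a median of 4.94 over all genes. Few dense bins carried these means, since the median bin held 2 fragments in both windows. The start of *Rag1* lay in a run of 3 raised bins with 32 fragments (101648501 to 101650000), at most 14 in a bin, and the bins of the next 3 kb downstream had 0 to 2. The start of *Rag1* is also 31 bp from that of B230118H07Rik on the same strand, so the fragments there cannot be told apart between the genes. The strongest bin in the shared window held 155 fragments, 229 times background (194 to 268). It lies in intron 2 of *Rag2* (101628501 to 101629000) and covers annotated starts of shorter B230118H07Rik transcripts, so a start of that gene and a site of *Rag2* cannot be told apart there. The next separate site, 3.25 kb upstream of *Rag1* (101652501 to 101653000), held 88 fragments from 82 cells, 130 times background (104 to 160). Of these 88 fragments 10 were shorter than nucleosomal DNA, or 11.4% (5.59 to 19.9%). At *Rag2*, raised bins spanned the start over 2.5 kb with 76 fragments (101623001 to 101625500).

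The surrogate light chain genes *Vpreb1* and *Igll1* are neighbors on chromosome 16 and share most of their windows. The record of *Vpreb1* starts at 16870843 on the minus strand, and the window there had 692 fragments from 528 cells, 256 times background (237 to 275), the highest promoter value of the 9. No transcript from this start is annotated as protein-coding, and it lies 107 bp from the start of *Top3b* on the other strand, whose window held 688 fragments. The transcript that encodes the protein, Vpreb1-201, starts 1588 bp further on at 16869255. There the window held 22 fragments, 8.13 times background (5.09 to 12.3), a value below the threshold whose interval includes it. By that start *Vpreb1* was primed, not open. *Vpreb1* has a near copy, *Vpreb2*, and 81.1% of the 50-bp words in the window of the protein-coding start occurred at 1 place only in the genome, so reads from the rest could have been lost in mapping. At *Igll1* (start at 16863985, minus strand), the promoter had 18 fragments from 17 cells, 6.65 times background (3.94 to 10.5), and none of the 18 was shorter than nucleosomal DNA. All words in that window were unique. Between both genes, 2.27 kb upstream of *Igll1*, a run of raised bins 2.0 kb long held 72 fragments (16865001 to 16867000), with 24 in its top bin at 35.5 times background (22.7 to 52.8). Downstream of both genes a site with 75 fragments in 70 cells (16855001 to 16855500) was the strongest distal bin of the window, at 111 times background (87.2 to 139). That bin was at percentile 37.4 of all genes for both, the lowest of the 9.

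**Figure D3:**
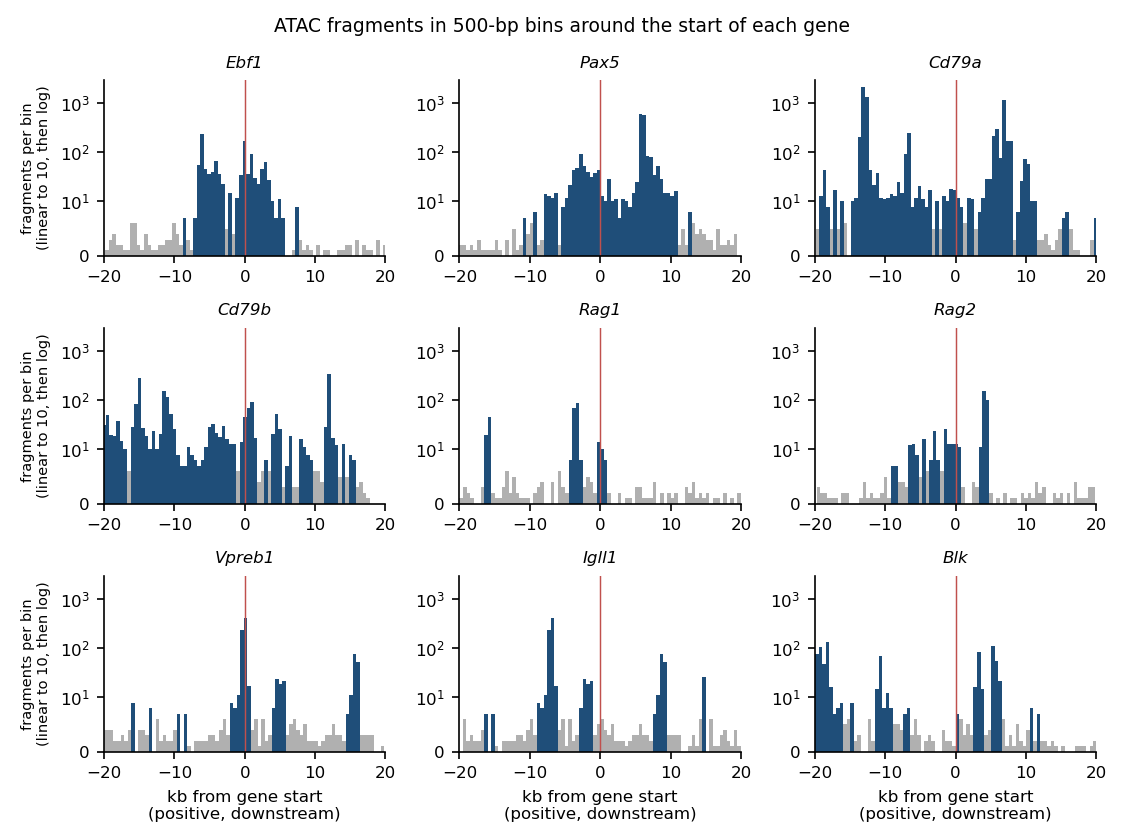
ATAC fragments per 500-bp bin within 20 kb of each gene start (y axis, linear to 10 and logarithmic above; x axis, kb, positive downstream; red line, gene start). Blue bins reach 10 times background. *Igll1*, *Blk* and *Cd79a* are low at the start, with denser bins some kb away, and the peak at 0 in the *Vpreb1* panel is also the start of *Top3b*.

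*Cd79a* lies on chromosome 7 (start at 24897381, plus strand) between busy neighbors. Its promoter held 57 fragments from 51 cells, 21.1 times background (15.9 to 27.3), at percentile 34.7. Over the body and flanks, however, the density was 160118 fragments per Mb (156434 to 163866), 118 times background and at percentile 96.2, the highest of the 9. Most of these fragments were at other genes. The start of *Rps19*, 13010 bp upstream, held 3814 fragments, and that of *Arhgef1*, 5531 bp downstream, held 598. The strongest bin over 1 kb from the starts of gene records had 1147 fragments (24904001 to 24904500), and it covers starts of other *Arhgef1* transcripts. A site 6.63 kb upstream of *Cd79a* (24890501 to 24891000), 1761 bp from the nearest annotated start, had 247 fragments at 365 times background (321 to 414). The promoter of *Cd79a* was at 0.178 of the density of its own window, the lowest ratio of the 9, at percentile 8.3 of all genes.

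*Cd79b* lies on chromosome 11 (start at 106314762, minus strand). Its promoter had 185 fragments from 158 cells, 68.3 times background (58.8 to 78.9), more than *Cd79a* with no overlap of the intervals, although the products of both genes act as 1 pair. From 106316001 to 106331000, upstream of the gene and towards and into *Scn4a*, raised bins ran without a break over 15.0 kb with 1113 fragments. The highest of them, 15.0 kb from the start, held 288 fragments at 426 times background (378 to 478). A second peak, 11.5 kb from the start, held 155. Downstream, the start of *Gh* held 320 fragments. In the *Cd79b* window 68.2% of bins were raised, and in that of *Cd79a* 73.6%.

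*Blk* lies on chromosome 14 (start at 63417037, minus strand). Its promoter held the fewest fragments of the 9, at 16 from 16 cells, 5.91 times background (3.38 to 9.6), and percentile 25.9. Denser bins lay inside the gene and at its far end. In intron 6, 34.8 kb from the start (63382001 to 63382500), 207 fragments came from 201 cells, 306 times background (266 to 351). Across the far end of the gene, 44.3 kb from the start (63372501 to 63373000), there were 178 fragments at 263 times background (226 to 305), and the densest 300 bases of that site (63372532 to 63372831) held 162. In intron 1, 5.29 kb from the start (63411501 to 63412000), there were 109 at 161 times background (132 to 194), with a PU.1 string in the bin. The intron 6 site held 76.8% short fragments (70.5 to 82.4%) and none of the 7 strings. The window also takes in the start of *Fam167a*, 19357 bp upstream, with 253 fragments.

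Across the windows of the 9 genes, with shared bins counted once, 355 of 1896 bins were raised, or 18.7%. The share was 17.0% of the bins over all protein-coding windows and 3.36% of intergenic bins. *Ebf1* alone held 863 of the 1896 bins, and 6.6% of its bins were raised. In the windows of the other members the share ran from 17.7% (*Pax5*) to 73.6% (*Cd79a*). For 8 of the 9 genes the strongest distal bin was denser than the promoter, as it was for 66.0% of all genes. The exception was *Vpreb1*, by its gene start. The distal value is the densest of many 500-bp bins, whereas the promoter value is a mean over a wider window. This favors the distal side, for the 9 genes as for all. Several of the strongest distal bins lie at starts of other transcripts. With bins within 1 kb of any annotated transcript start of a protein-coding gene left out, a choice made after seeing the data, the strongest bin fell from 905 to 176 times background for *Pax5*, to 365 for *Cd79a*, and from 229 to 130 for *Rag1* and *Rag2*, and the values of the other 5 genes were the same. It was then denser than the promoter for 8 of the 9 genes, against 62.3% of all genes, and above the median over all genes, 154 times background, for 5 of the 9. The whole-window density of 3 of the 9 exceeded the median of 19.9.

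Fragment length was read as the share of short fragments, those shorter than the DNA wrapped around a nucleosome. They made up 57.1% of fragments over all promoters and 18.8% in intergenic bins under the threshold. At the promoters they made up 52.5% for *Vpreb1* (48.7 to 56.2%) and 41.4% for *Ebf1* (35.6 to 47.4%). They made up 27.0% for *Cd79b* (20.8 to 34.0%), 22.9% for *Pax5* (15.2 to 32.1%) and 17.5% for *Cd79a* (8.75 to 29.9%). The intervals of *Pax5*, *Cd79a*, *Rag1*, *Rag2* and *Blk* include the intergenic 18.8%, and that of *Igll1*, 0 to 18.5%, ends just below it. All 2108 promoters at 5 to 20 times background, the members in that range included, had 24.7%. At the Pax5 site in intron 1, by contrast, 73.4% were short (69.7 to 76.8%), and at the strongest bin upstream of *Cd79b* 72.9% (67.4 to 78.0%).

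**Figure D4:**
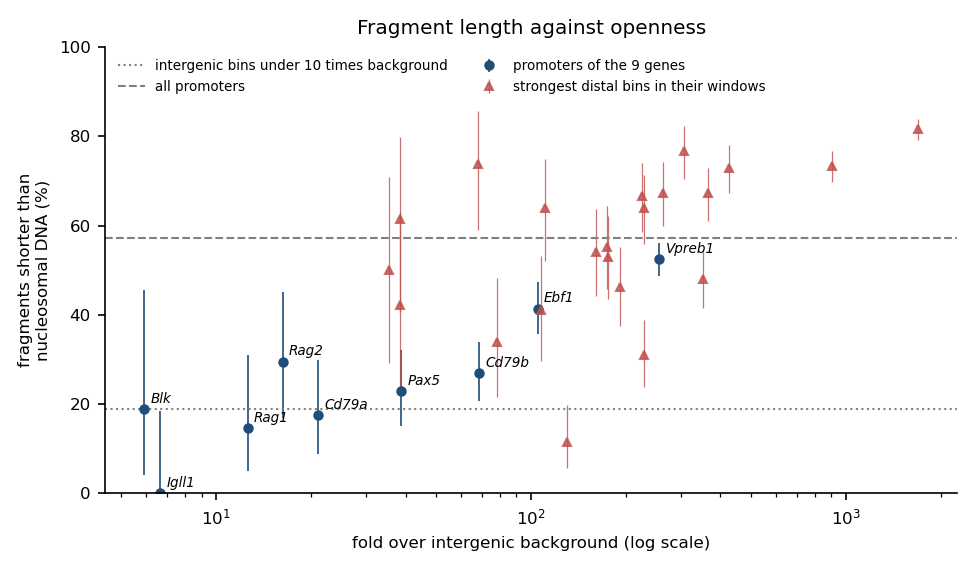
Share of fragments shorter than nucleosomal DNA (y axis, %, with 95% binomial intervals) against fold over background (x axis, log scale) at the 9 promoters (circles) and at the 22 strongest distal bins in their windows (triangles). Lines mark 57.1% over all promoters and 18.8% in intergenic bins under the threshold. Weak promoters lie near the lower line, and most distal bins between the lines or above.

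The fragments were spread thinly over cells. At no promoter did a cell hold more than 6 fragments, and at the *Blk* promoter each cell had 1. Of the 3108 cells, 2082 had no fragment at any of the 9 promoters, 882 had fragments at 1, 130 at 2, 11 at 3 and 3 at 4, and no cell had fragments at 5 or more, which allows a share of up to 0.0965%, or 3 cells by that limit. Without *Vpreb1*, 44 cells had fragments at 2 promoters and 5 at 3. Cells with more members hit were deeper, with medians of 10983.5, 12161 and 13454.5 fragments in the cells with 0, 1 and 2, and depth thus moved with the tally. Its part in the tally was not tested. Of the 1036 cells with the fewest fragments 13.0% had a fragment in the Pax5 site, and of the 1036 with the most 21.0%. The Ebf1 site was hit in 5.89% and 8.88% of these cells. Of the 223 cells with a fragment in the Ebf1 site, 52 also had one in the Pax5 site, which is 23.3% of the first and 9.85% of the 528 of the second. Over all 3108 cells, 17.0% were hit in the Pax5 site and 7.18% in the Ebf1 site. Depth moved with both, and its part in the overlap was not tested.

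The 7 strings were searched in every raised bin of these windows. CAGGTG was in 37.5% of the 355, against 35.8% of all 559098 raised bins of the genome and 26.7% of all bins without gaps. The EBF string was in 8.73%, against 8.56% and 4.54%. The PU.1 string was in 5.35%, against 4.55% and 3.01%. The RUNX string was in 30.7%, against 35.9% and 31.1%, and the GATA string in 17.7%, against 21.2% and 30.0%. FOXO strings were in 3.38%, against 6.09% and 7.38%, and STAT strings in 13.5%, against 13.5% and 17.8%. Among the 22 strongest distal bins, 12 held CAGGTG, 6 RUNX, 3 PU.1, 3 GATA, 2 STAT and 1 FOXO strings, and none held the EBF string.

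The rest of the B-cell program was split by role. Of 16 upstream factors and receptors, 15 were open and 1 was closed, 13 were at 100 times background or more, and 12 were CpG-rich. Of all protein-coding genes 70.1% were open and 51.8% reached 100 times background. *Tcf3*, which encodes the E-proteins E12 and E47, stood at 1330 times background and *Foxo1* at 764. At the other end, *Spib* stood at 38.4 and *Il7r*, the receptor for interleukin 7, at 4.06 (2.03 to 7.27), with no raised distal bin. The median of this list was 338 times background. Of 20 further targets and effectors, 14 were open, 5 primed and 1 closed, 5 were at 100 times background or more, and the median was 42.1. The share open, 14 of 20, was thus about that of all genes, and the share at 100 times background or more was below it. *Cd24a* led them at 596, followed by *Cd74* at 249, and *Fcrla* at 2.22 and *Pou2af1* at 2.95 came last. The closed gene was *Ms4a1*, which encodes CD20, at 3.69 times background (1.77 to 6.79).

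Genes that mark other lineages gave the scale. Of 15 T-lineage genes 8 were open and 7 primed, with a median of 10.7. The highest were *Lat* at 275 and *Tcf7* at 238, and the lowest *Cd8a* at 2.95 and *Cd3e* at 3.69. Of 12 neutrophil granule genes 6 were open and 6 primed, with a median of 12.2 and a range from *Ctsg* at 0.739 to *Prtn3* at 122. Of 12 platelet and megakaryocyte genes 10 were open, 1 primed and 1 closed, with a median of 141, and *Itga2b* was highest at 429. The 14 HSC markers and factors had a median of 226. Of 18 genes of other organs, 10 were also open, with a median of 15.9, from *Umod* with no fragment (a count of 0, which allows up to 1.11 times background, or 3 fragments) to *Ckm* at 263. The median of the 9 B-lineage genes, 21.1 by gene start and 16.3 with *Vpreb1* at its protein-coding start, lay nearest that of the other-organ genes and below those of the HSC and platelet lists, over all genes of each list. For the 16.3 only *Vpreb1* was moved, and the genes of all lists, *Pax5* included, otherwise stayed at their gene starts. All 9 B-lineage genes were CpG-poor, whereas 6 of the HSC genes were CpG-rich. Among CpG-poor promoters alone, the median was 66.1 for the 8 HSC genes, 141 for the 12 platelet genes, 84.4 for the 4 upstream factors, 22.2 for the 17 B-cell targets, 9.97 for the 13 T-lineage genes, 12.2 for the granule genes and 8.86 for the 15 genes of other organs. In that set the 21.1 of the 9 genes lay nearest the 22.2 of the B-cell targets, and 16.3 lay nearest the 12.2 of the granule genes. The likeness to genes of other organs, at 8.86, thus held only over all genes of each list. No test was made between lists, which share 1 library. Over their windows, 18.7% of bins were raised for the 9 genes, 21.9% for other organs and 23.4% for the B-cell targets. The share was 38.4% for T-lineage, 40.7% for granule, 41.5% for upstream factors, 43.1% for platelet and 54.5% for HSC genes. The 18.7% is pooled over bins, and *Ebf1*, at 6.6%, held 863 of the 1896.

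**Figure D5:**
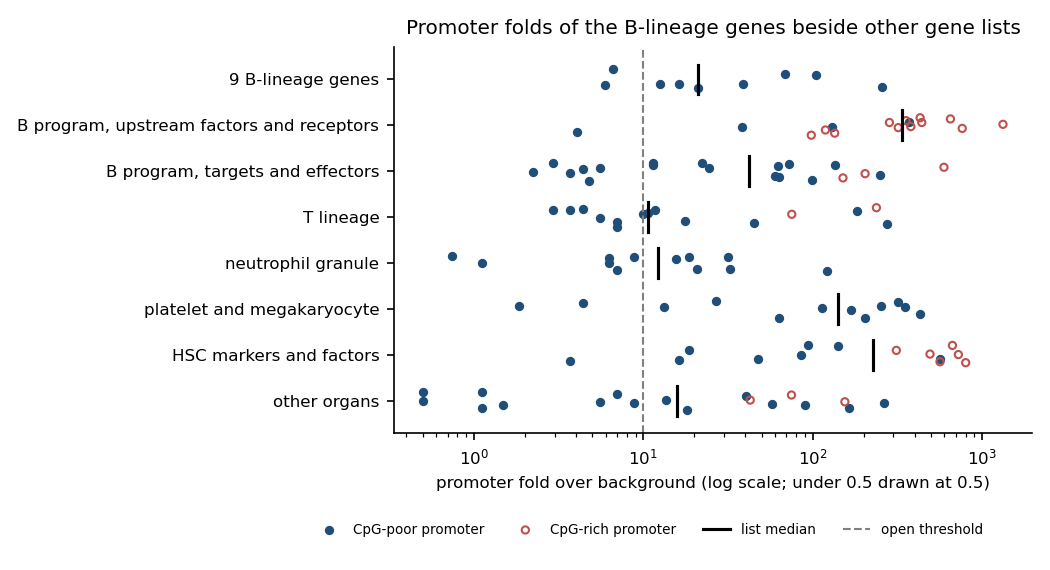
Promoter fold over background (x axis, log scale) for each gene of the lists (y axis). Filled points are CpG-poor and open points CpG-rich promoters, black bars are list medians, and the dashed line is the threshold of 10. The 9 B-lineage genes are all CpG-poor, with a median of 21.1, and most upstream factors lie above 100.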

How the data were processed

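Per the file headers, the authors ran Cell Ranger ARC 2.0.2 on the mm10 reference, and they deposited the position of each unique fragment, with the count of read pairs behind it, and counts of fragments and UMIs for every barcode, with a flag for called cells. No deposited count was normalized. Whether fragment ends were shifted for the transposase was not stated. The counts of antibody tags were left out, since they do not bear on these genes.

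Fragments of called cells with more than 3000 fragments in peaks were counted by midpoint on chromosomes 1 to 19 and X with GENCODE vM21 genes. No fragment ended past its GRCm38 chromosome. The depth was 37137164 fragments in 3108 cells (3977 to 194399 per cell). Doublets were not removed. The members and lists were chosen with earlier results of these data known. By the rule for named genes, all members are described in full, other lists by counts with at most 4 examples (the 2 highest and 2 lowest), each member's window by at most 3 bins outside promoters, with neighbors where their start lies in a window. *Ms4a1* falls outside this rule and was named after its value was seen. Python 3.11.15, numpy 2.4.6, scipy 1.17.1, pandas 2.3.3, numba 0.67.0 and matplotlib 3.10.9 were used. Counting was tested on simulated data. As the design has 1 library, no tests were run. Alternatives (15 planned, 4 added after seeing the data) changed cells, depth, counting, fragment length, start, window, threshold, background, bin size, flank, neighbors and transcript starts.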

Additional observations from a re-analysis of the deposited data

Results flagged for a closer look

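Barcodes that were not called as cells also held fragments at the promoters of these genes. There were 89 such fragments against 1436 in the cells kept, which is about 25 per 1000000 fragments outside cells and 39 in cells. For 4 genes the number was above 3 fragments, the limit set for a count of 0: *Vpreb1* at its gene start with 42, *Cd79b* with 21, *Ebf1* with 12 and *Pax5* with 5. Per 1000000 fragments, *Cd79b* stood at 5.96 outside cells and at 4.98 in cells, the only one of these 4 that was higher outside. *Ebf1* stood at 3.4 outside and 7.67 in cells, *Pax5* at 1.42 and 2.83, and *Vpreb1* at 11.9 and 18.6. *Blk* had no fragment outside cells. The source of these fragments was not tested.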

How the results depend on the processing

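No paired analysis was possible because there is 1 ATAC library. No member was closed under any of the 19 alternatives, by which 1.6% to 25.4% of all genes were closed. The median promoter percentile of the 9 genes stayed between 30.7 and 36.3. The number open was 7 in 12 of the alternatives, by which 69.8% to 73.5% of all genes were open. The number fell to 4 with the background taken from the windows of protein-coding genes (5 primed, 131 raised bins). Of all genes 63.2% were then open and 19.4% primed. That background lowered every fold, *Ebf1* from 105 to 35.6, *Pax5* from 38.8 to 13.1 and *Vpreb1* from 256 to 86.5. At a threshold of 100, chosen after seeing the data, 2 were open (7 primed, 50 raised bins), against 51.8% of all genes. At 20 times background 5 were open (4 primed, 176 raised bins), against 65.7% of all genes. At 5 times all 9 were open (0 primed, 576 raised bins), against 75.3% of all genes. By overlap instead of midpoint *Rag1* was primed as well and 6 were open, against 67.9% of all genes. By the start of the principal transcript, a choice made after seeing the data, *Vpreb1* was primed and 6 were open, against 71.4% of all genes. With cells thinned to 3000 fragments 1 was primed, against 20.1% of all genes, as *Blk* passed the threshold at 11.6. *Pax5* then stood at 59.9 and *Rag1* at 21.3. The cause was not tested. With windows of 2 kb either side *Igll1* was open and *Rag1* primed. The 355 raised bins became 690 with short fragments only, 168 with 1000-bp bins (fewer, larger bins) and 222 with a flank of 5 kb (fewer bins). With short fragments only, *Ebf1* stood at 296, *Pax5* at 60.2, *Cd79b* at 125, *Rag2* at 32.6 and *Vpreb1* at 910, and *Igll1* had none. *Cd79a*, *Rag1* and *Blk* stayed within their intervals, and the median of all genes was 301. In windows of 500 bp either side *Vpreb1* stood at 481, *Ebf1* at 159 and *Rag1* at 17.7. The other members stayed within their intervals. Cells of 1 preparation are not replicates, so the spread between mice is unknown, and counts under 50 per promoter set how near *Rag1*, *Igll1* and the *Vpreb1* transcript lie to the threshold.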
